A study of Mus musculus with 92 samples.

Results

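The 10 genes described here, Ptprc, Cd3e, Cd3g, Cd8a, Itgae, Gzma, Gzmb, Nkg7, Ccl5 and Klrd1, are markers of intraepithelial lymphocytes and were taken by symbol from the 54532 gene records of the deposited count tables. All 10 were found in every table. Sequencing of poly(A) RNA, in strand-marked libraries, covered 92 mouse libraries of 21 groups, of which 36 were intestinal crypts and villi and 56 were organoids and fetal spheroids grown from intestinal epithelium. The study removed Eif4g2, a relative of the translation initiation factor eIF4G, with a tamoxifen-activated Cre recombinase (CreER).

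Intraepithelial lymphocytes are T cells that lie between the epithelial cells of the gut lining, most of them with cytotoxic equipment and many with a gamma-delta T cell receptor. They are held there by the integrin CD103, whose alpha chain Itgae encodes and whose ligand on epithelial cells is E-cadherin, and they depend on epithelial signals such as interleukin-15 and butyrophilin-like proteins. Villi carry more of them than crypts, and cultures grown from epithelial stem cells alone contain none.

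All tissue mice carried CreER and received tamoxifen, so the heterozygous animals differed from the homozygous ones in having 1 floxed Eif4g2 allele, Eif4g2(flox/+), in place of both, Eif4g2(flox/flox). With the Rosa26(CreER) driver, tissue was taken on day 9, from heterozygous animals as 5 crypt and 5 villus libraries and from homozygous animals as 4 crypt and 5 villus libraries. With the Vil1(CreER) driver, mice received 4 daily injections of 100 mg/kg tamoxifen, and the tissue was labelled 3 months. The labels do not say whether this is time after tamoxifen or age. There were 4 crypt and 4 villus libraries of heterozygous and 3 crypt and 6 villus libraries of homozygous animals. Rosa26 is active in most cell types, lymphocytes included, whereas the Vil1 promoter is active in intestinal epithelium. Whether lymphocytes of the Rosa26-CreER animals had lost Eif4g2 was not measured. Driver and labelled time point changed together, so their parts in any difference between the mouse models cannot be told apart. The tamoxifen dose of the Rosa26-CreER mice was not given in the sources used here. Ages at tissue collection were not given either, unless 3 months is an age.

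All cultures carried Rosa26(CreER), and 4-hydroxytamoxifen (4-OHT, the active form of tamoxifen) was given at 0.5 uM for 24 hours, with RNA taken on day 6. The first organoid set held 3 DMSO and 3 4-OHT libraries of Eif4g2(flox/flox) cultures. The second held 4 libraries each of Eif4g2(flox/flox), Eif4g2(flox/+) and Eif4g2(+/+) cultures, all with 4-OHT. Fetal spheroids were treated with DMSO or 4-OHT, with 6 libraries of each for Eif4g2(flox/flox) and 5 of each for Eif4g2(flox/+). A further organoid series received DMSO or 3, 5 or 10 uM of A-485, which blocks the acetyltransferase activity of CBP and p300, until day 4 and no 4-OHT, with 4 libraries per dose, of which 1 was Eif4g2(+/+) and 3 were Eif4g2(flox/flox).

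Total counts were 22458821 to 37611126 per Rosa26-CreER tissue library and 23957033 to 36985500 per Vil1-CreER tissue library, and levels are given as CPM, counts scaled to a common library size, with library sizes scaled by the trimmed mean of M values (TMM). Eif4g2 checked the labels: it lay at 67.9 to 98.3 CPM in homozygous against 337 to 357 CPM in heterozygous Rosa26-CreER crypts, at 48.3 to 61.7 against 319 to 384 CPM in the villi, at 231 to 240 against 437 to 488 CPM in Vil1-CreER crypts and at 134 to 182 against 357 to 475 CPM in the villi. Mitochondrial genes took 2.39 to 40.3% of tissue counts, and the heterozygous Rosa26-CreER villus library 3 stood apart with 24.5% where the other heterozygous villi had 2.74 to 9.63%. Heterozygous Rosa26-CreER crypt library 4, homozygous Rosa26-CreER crypt library 5 and heterozygous Vil1-CreER crypt library 3 also stood apart in the lymphocyte genes, as the values below show.

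RefSeq promoter sequences on GRCm38.p6, from 250 bases before to 50 bases after the transcription start, were available for 7 of the 10 genes as 8 windows, 2 of them for Ptprc. Those of 3 cytotoxic genes and of Cd3e are shown as examples. Capitals mark TGTGGT, the core letters bound by RUNX factors, and AGGAAG, a core bound by ETS factors, each searched on both strands, so that ACCACA and CTTCCT are the same letters read from the other strand.
Gzma, granzyme A, chr13:113100932-113101231, minus strand: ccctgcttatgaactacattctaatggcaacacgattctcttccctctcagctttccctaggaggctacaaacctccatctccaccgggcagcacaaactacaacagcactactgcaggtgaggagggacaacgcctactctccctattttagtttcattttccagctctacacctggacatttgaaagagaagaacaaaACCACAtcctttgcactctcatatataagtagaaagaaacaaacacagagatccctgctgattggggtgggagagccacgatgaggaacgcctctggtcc
Gzmb, granzyme B, chr14:56262285-56262584, minus strand: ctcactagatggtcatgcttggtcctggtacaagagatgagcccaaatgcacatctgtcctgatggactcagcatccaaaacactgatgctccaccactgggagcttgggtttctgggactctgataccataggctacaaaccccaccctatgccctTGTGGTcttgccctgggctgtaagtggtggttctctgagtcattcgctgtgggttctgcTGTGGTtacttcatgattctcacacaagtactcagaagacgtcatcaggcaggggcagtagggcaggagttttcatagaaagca
Nkg7, a protein of cytotoxic granules, chr7:43436888-43437187, plus strand: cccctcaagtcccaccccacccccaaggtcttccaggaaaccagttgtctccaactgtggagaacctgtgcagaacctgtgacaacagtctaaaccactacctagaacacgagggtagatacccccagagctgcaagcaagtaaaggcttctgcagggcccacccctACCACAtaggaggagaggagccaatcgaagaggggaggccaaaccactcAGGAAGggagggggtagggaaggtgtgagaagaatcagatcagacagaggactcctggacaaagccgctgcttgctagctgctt
Cd3e, the CD3 epsilon chain, chr9:45009562-45009861, minus strand: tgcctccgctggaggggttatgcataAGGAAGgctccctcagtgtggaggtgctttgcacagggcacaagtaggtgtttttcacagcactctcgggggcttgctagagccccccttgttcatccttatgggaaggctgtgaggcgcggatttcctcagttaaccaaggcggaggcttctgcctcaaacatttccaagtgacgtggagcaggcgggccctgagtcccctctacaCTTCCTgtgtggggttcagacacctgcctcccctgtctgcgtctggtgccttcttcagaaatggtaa
The RUNX letters occurred in windows of 3 of the 7 genes, Gzma, Gzmb and Nkg7, and in 16.8% of all 32851 promoter windows of that length. The ETS letters occurred in windows of Ptprc (both), Cd3e and Nkg7, against 35.4% of all windows. The windows of Cd3g and Cd8a, which are not shown, held neither the RUNX nor the ETS letters. These matches describe letters and do not show binding.

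In villi, RNA of all 10 genes was lower in homozygous than in heterozygous libraries with both drivers. With Rosa26-CreER on day 9 the falls ran from 2.05-fold for Gzmb to 3.76-fold for Ccl5, and with Vil1-CreER at 3 months from 3.69-fold for Ptprc to 7.96-fold for Ccl5. The CD3 chains of the T cell receptor complex, the co-receptor, the retention integrin, the granzymes and the natural killer receptor fell together. In bulk tissue, fewer cells of a type and less RNA per cell cannot be told apart. All 10 genes passed an adjusted p of 0.05 in edgeR's quasi-likelihood test in both villus comparisons, where 18.2% of 13579 tested genes (Rosa26-CreER) and 21.6% of 15107 (Vil1-CreER) were called lower. The median log2 fold change of the 10 was -1.36 with Rosa26-CreER and -2.18 with Vil1-CreER, where the medians of all tested genes were -0.01 and 0.05.

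**Figure D1:**
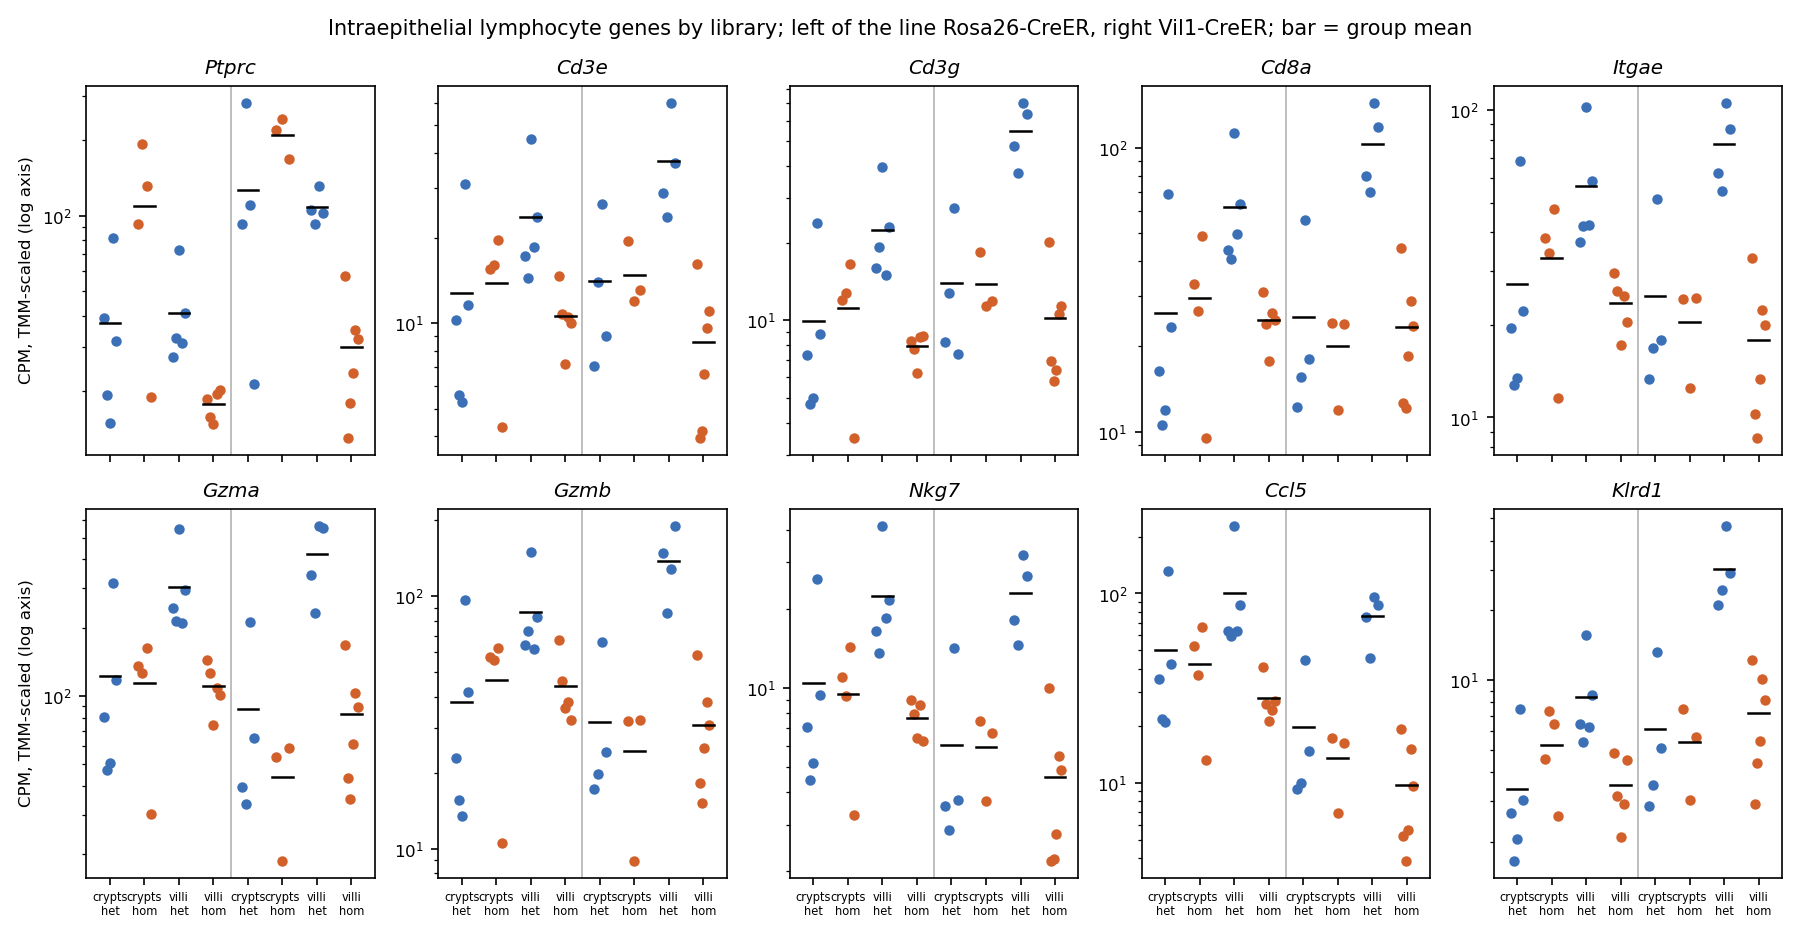
Level of each of the 10 genes in every tissue library (CPM, log axis), by driver, crypts or villi, and genotype; each point is a library and each bar the group mean. Heterozygous villi lie above homozygous villi for both drivers, without overlap for all 10 genes in Vil1-CreER villi and for 8 in Rosa26-CreER villi, and the crypt groups overlap for all 10.

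Of all tested villus genes, 11.1% with Rosa26-CreER and 15.7% with Vil1-CreER had every homozygous library under every heterozygous one, where 8 and 10 of the 10 genes did. In crypts the groups did not overlap, in either direction, for 20.1% of tested genes with Rosa26-CreER and 39.6% with Vil1-CreER, and for 0 of the 10 genes with either driver.

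The CD3 chains carry the signal of the T cell receptor into the cell. Cd3e (chr9:44998740-45009627, GRCm38) read 17.3, 14.4, 44.8, 18.7 and 23.7 CPM in the 5 heterozygous Rosa26-CreER villi and 14.7, 10.8, 7.16, 10.5 and 10.1 CPM in the homozygous ones. The groups met at one point, where the highest homozygous library exceeded the lowest heterozygous one. The log2 fold change was -1.22 ± 0.32 (SE; adjusted p = 0.0145). In Vil1-CreER villi Cd3e read 28.8, 23.7, 59.9 and 36.8 CPM in heterozygous libraries and 3.94 to 16.1 CPM, with a median of 8.13, in the 6 homozygous ones. These groups did not overlap, and the log2 fold change was -2.16 ± 0.38 (adjusted p = 0.00101). Cd3g (chr9:44969572-44980431), which lies beside Cd3e, read 15.98, 19.3, 39.6, 15.0 and 23.0 CPM in heterozygous and 8.33, 7.77, 6.25, 8.60 and 8.71 CPM in homozygous Rosa26-CreER villi. Its groups did not overlap, with a log2 fold change of -1.57 ± 0.26 (adjusted p = 0.00141). In Vil1-CreER villi Cd3g read 47.8, 37.7, 70.4 and 63.6 CPM against 5.82 to 20.3 CPM with a median of 8.77, a log2 fold change of -2.46 ± 0.32 (adjusted p = 8.99e-05).

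Cd8a encodes the alpha chain of CD8, the co-receptor that reads class I molecules and that many intraepithelial lymphocytes carry as an alpha-alpha pair. Cd8a (chr6:71373427-71379173) read 43.7, 40.5, 113, 49.9 and 63.7 CPM in heterozygous and 31.1, 24.1, 17.8, 26.2 and 24.8 CPM in homozygous Rosa26-CreER villi. All homozygous libraries lay under all heterozygous ones, with a log2 fold change of -1.39 ± 0.29 (adjusted p = 0.00505). In Vil1-CreER villi it read 79.8, 70.2, 144 and 119 CPM against 12.2 to 44.5 CPM with a median of 21.1. This was a log2 fold change of -2.18 ± 0.35 (adjusted p = 0.000561). Itgae (chr11:73090583-73147446), which holds the cells at the epithelium, read 37.1, 41.8, 103, 42.4 and 58.6 CPM in heterozygous and 29.5, 25.7, 17.2, 24.8 and 20.4 CPM in homozygous Rosa26-CreER villi. In Vil1-CreER villi it read 62.3, 54.4, 106 and 86.9 CPM against 8.57 to 32.9 CPM with a median of 16.7. Neither pair of groups overlapped, and the log2 fold changes were -1.32 ± 0.29 (adjusted p = 0.00637) and -2.15 ± 0.34 (adjusted p = 0.000493).

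Granzymes are the proteases that cytotoxic lymphocytes release into target cells. Gzma (chr13:113093825-113100981) read 245, 214, 548, 209 and 293 CPM in heterozygous and 144, 127, 74.7, 108 and 101 CPM in homozygous Rosa26-CreER villi. The lowest heterozygous library was above the highest homozygous one, and the log2 fold change was -1.51 ± 0.30 (adjusted p = 0.00353). In Vil1-CreER villi Gzma read 341, 233, 563 and 548 CPM against 35.2 to 168 CPM with a median of 75.6, a log2 fold change of -2.37 ± 0.41 (adjusted p = 0.00106). Gzmb (chr14:56258838-56262260) read 64.5, 72.9, 150, 61.6 and 83.2 CPM in heterozygous and 67.1, 46.4, 36.1, 38.2 and 32.5 CPM in homozygous Rosa26-CreER villi. Homozygous library 1 lay within the heterozygous range, and the log2 fold change of -1.03 ± 0.29 (adjusted p = 0.0191) was the nearest to 0 of the 10. In Vil1-CreER villi Gzmb read 148, 86.0, 129 and 190 CPM against 15.2 to 58.8 CPM with a median of 27.9, without overlap, for a log2 fold change of -2.19 ± 0.34 (adjusted p = 0.000444). Nkg7 (chr7:43437073-43438249) read 16.5, 13.5, 41.3, 18.3 and 21.6 CPM in heterozygous and 8.98, 7.91, 6.43, 8.60 and 6.25 CPM in homozygous Rosa26-CreER villi. Its groups were apart, with a log2 fold change of -1.60 ± 0.29 (adjusted p = 0.00226). In Vil1-CreER villi Nkg7 read 18.2, 14.6, 32.1 and 26.6 CPM against 2.18 to 9.94 CPM with a median of 3.82, a log2 fold change of -2.36 ± 0.39 (adjusted p = 0.000556).

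Ccl5 encodes a chemokine that resting memory-type cytotoxic lymphocytes hold ready for release. Ccl5 (chr11:83525778-83530518) read 63.2, 59.8, 228, 63.3 and 87.3 CPM in heterozygous and 40.9, 25.9, 21.2, 24.3 and 27.1 CPM in homozygous Rosa26-CreER villi, and 75.4, 45.5, 95.8 and 87.2 CPM against 3.85 to 19.3 CPM with a median of 7.64 in Vil1-CreER villi. Neither pair of groups overlapped, and in both drivers its point estimate was the lowest of the 10, with log2 fold changes of -1.91 ± 0.41 (adjusted p = 0.00652) and -2.99 ± 0.43 (adjusted p = 0.000334). Klrd1 encodes CD94, the shared chain of the natural killer receptors that read non-classical class I molecules. Klrd1 (chr6:129591782-129598775) read 6.46, 5.38, 15.6, 6.23 and 8.63 CPM in heterozygous and 4.85, 3.14, 2.10, 2.91 and 4.53 CPM in homozygous Rosa26-CreER villi. In Vil1-CreER villi it read 21.2, 24.4, 46.4 and 28.9 CPM against 2.91 to 12.2 CPM with a median of 6.81. Its groups were apart with both drivers, and the log2 fold changes were -1.32 ± 0.34 (adjusted p = 0.0119) and -2.11 ± 0.35 (adjusted p = 0.000524).

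Ptprc encodes CD45, the phosphatase found on all nucleated blood cells, B cells and macrophages as well as T cells. Ptprc (chr1:138062861-138175708) read 27.3, 32.4, 73.2, 31.1 and 41.1 CPM in heterozygous and 18.6, 15.8, 14.8, 19.5 and 20.2 CPM in homozygous Rosa26-CreER villi. In Vil1-CreER villi it read 105, 92.5, 131 and 102 CPM against 13.0 to 57.7 CPM with a median of 27.9. Both pairs of groups were apart, with log2 fold changes of -1.26 ± 0.26 (adjusted p = 0.00481) and -1.88 ± 0.32 (adjusted p = 0.000814).

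In Rosa26-CreER villi the library with the highest level of each gene was heterozygous library 3, the one with the high mitochondrial share. Without it all 10 genes stayed called, at a median log2 fold change of -0.98. All 5 heterozygous Rosa26-CreER villus libraries had counts of the Y-linked gene Ddx3y, while homozygous libraries 3, 4 and 5 had none. With Ddx3y status as a covariate the 10 fold changes stayed negative with a median of -1.23, and Cd3g, Nkg7 and Ptprc stayed called (adjusted p = 0.0195, 0.0342 and 0.0375) while the other 7 did not. When the crypt libraries shared the estimate of spread, Cd3e, Gzmb and Ptprc were no longer called (adjusted p = 0.0688, 0.154 and 0.0690). In Vil1-CreER villi all 10 genes were called under every alternative run.

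**Figure D2:**
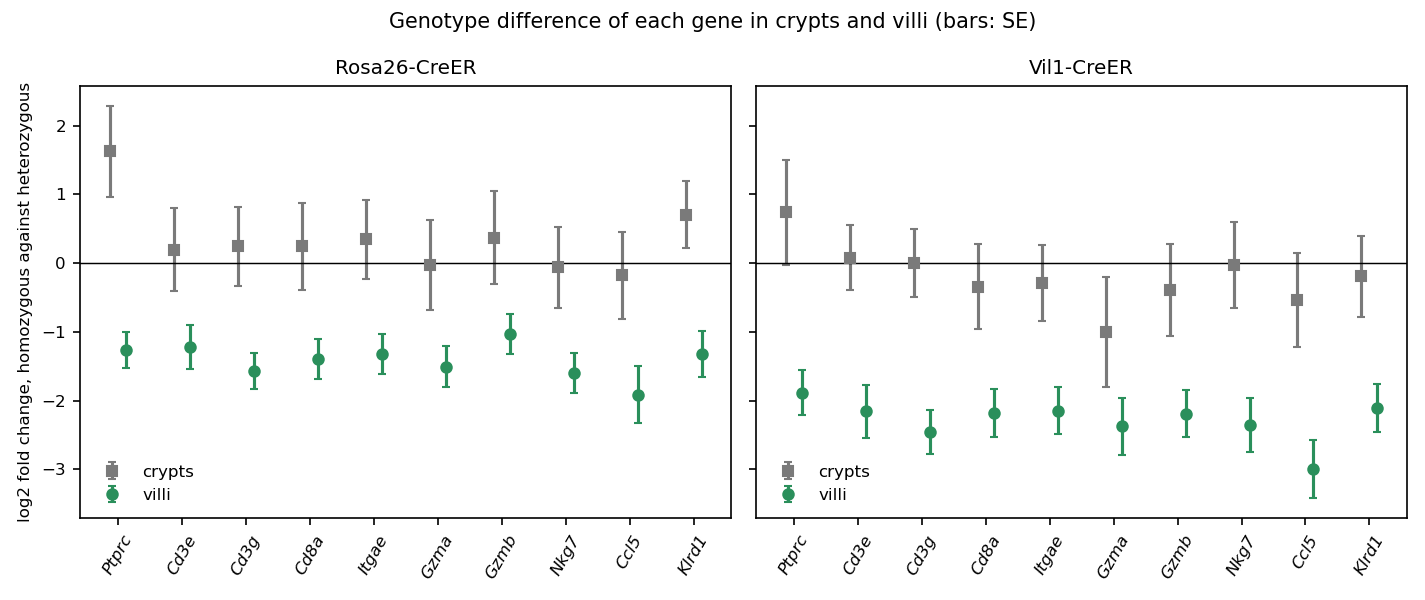
Log2 fold change of homozygous over heterozygous libraries for each of the 10 genes, with bars of 1 SE, in crypts and villi of both drivers. Villus values run from -1.03 to -1.91 with Rosa26-CreER and from -1.88 to -2.99 with Vil1-CreER, whereas crypt values lie on both sides of 0 with wide errors.

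In crypts none of the 10 genes passed the test for genotype. In Rosa26-CreER crypts 0 of 10 were called, where 20.2% of 15846 tested genes were, and in Vil1-CreER crypts 0 of 10, where 29.3% of 16954 were. At an unadjusted p under 0.05 there was 1 gene in Rosa26-CreER crypts (Ptprc) and 0 in Vil1-CreER crypts, and DESeq2 also called 0 in both. The median log2 fold change of the 10 was 0.25 in Rosa26-CreER and -0.24 in Vil1-CreER crypts. Standard errors of single genes ran from 0.47 to 0.80, against 0.26 to 0.43 in the villi. The mitochondrial share of counts was 13.7 to 25.2% in homozygous and 6.24 to 12.4% in heterozygous Rosa26-CreER crypts, without overlap, and 30.4 to 40.3% against 17.5 to 30.8% in Vil1-CreER crypts. The part of the mitochondrial share in the crypt values was not tested. As in the villi, all 5 heterozygous Rosa26-CreER crypt libraries had Ddx3y counts, while homozygous libraries 3, 4 and 5 had none. Ddx3y status thus nearly coincided with genotype there.

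The spread among crypt libraries of one group exceeded the difference between genotypes. Cd3e read 10.3, 5.57, 5.30, 31.0 and 11.6 CPM in heterozygous and 15.5, 16.1, 19.6 and 4.29 CPM in homozygous Rosa26-CreER crypts. Heterozygous library 4 was higher than every homozygous library, and homozygous library 5 lower than every heterozygous one. Gzma showed the same libraries at the ends, with 81.1, 47.0, 50.6, 314 and 118 CPM in heterozygous and 135, 127, 163 and 30.3 CPM in homozygous crypts. Its log2 fold change was -0.02 ± 0.65 (adjusted p = 0.985), and without heterozygous library 4 it was 0.71. Klrd1 read 2.65, 1.64, 2.06, 7.47 and 3.03 CPM against 4.57, 7.32, 6.42 and 2.58 CPM, a log2 fold change of 0.70 ± 0.49 (adjusted p = 0.328). In Vil1-CreER crypts Cd3e read 7.06, 14.0, 26.3 and 9.00 CPM in heterozygous and 19.4, 11.9 and 13.1 CPM in homozygous libraries, and Gzma read 39.9, 33.5, 211 and 65.5 CPM against 53.6, 18.7 and 58.9 CPM. Heterozygous library 3 was the highest for both genes, and without it the median log2 fold change of the 10 genes turned from -0.24 to 0.44, with 0 called.

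Ptprc had the highest crypt fold change of the 10 with both drivers. It read 39.0, 19.3, 15.0, 81.3 and 31.8 CPM in heterozygous and 92.3, 193, 131 and 19.0 CPM in homozygous Rosa26-CreER crypts, a log2 fold change of 1.63 ± 0.66 (adjusted p = 0.109). Of the 4 homozygous libraries 3 were above all heterozygous ones and library 5 was below 4 of the 5, and without library 5 Ptprc was called (adjusted p = 0.0197). In Vil1-CreER crypts Ptprc read 92.8, 281, 110 and 21.3 CPM in heterozygous and 220, 242 and 168 CPM in homozygous libraries, a log2 fold change of 0.74 ± 0.76 (adjusted p = 0.519). Cd79a, a chain of the B cell receptor that T cells lack, read 40.0, 134, 14.5 and 0.241 CPM in the same heterozygous and 106, 124 and 77.4 CPM in the same homozygous libraries. In Rosa26-CreER crypts Cd79a read 21.7, 8.32, 2.17, 29.6 and 11.0 CPM in heterozygous and 65.8, 121, 43.6 and 6.27 CPM in homozygous libraries. In each of the 4 crypt groups the library with the most Ptprc was also the one with the most Cd79a. The part of B cells in the Ptprc values was not tested.

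The ratio of Ptprc to Cd3e counts within a library needs no scaling between libraries. In Rosa26-CreER crypts its log2 value was 2.15 to 3.59 in homozygous and 1.39 to 1.93 in heterozygous libraries, and the groups did not overlap. In Rosa26-CreER villi it was 0.34 to 1.05 in homozygous and 0.66 to 1.17 in heterozygous libraries, which overlapped, as did Vil1-CreER villi with 1.54 to 2.11 and 1.13 to 1.96. Vil1-CreER crypts held 3.50 to 4.34 in homozygous and 1.25 to 4.33 in heterozygous libraries. These ratios are given as descriptions without a test, and the share of all genes with such a lack of overlap was not computed for ratios.

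**Figure D3:**
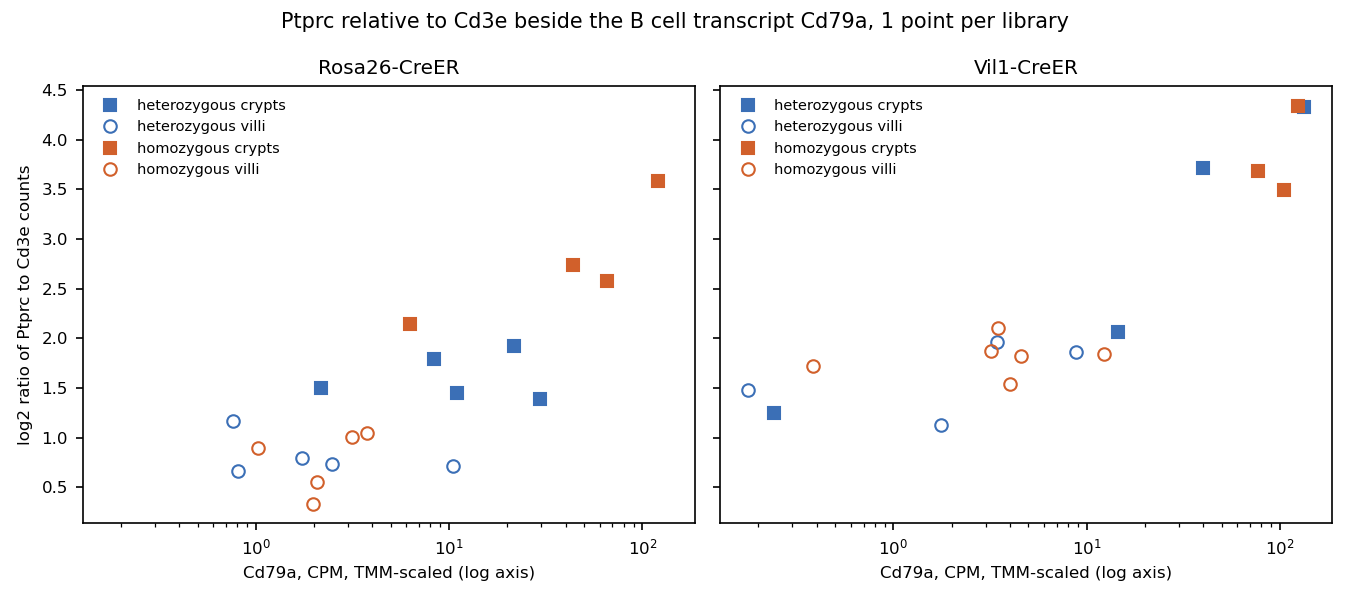
Log2 ratio of Ptprc to Cd3e counts against the Cd79a level (CPM, log axis) in each tissue library. Villus libraries lie between 0.34 and 2.11, and the crypt libraries with the most Cd79a have ratios of 3.50 and more. The libraries share depth and preparation, so the pattern is a description.

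In Vil1-CreER villi 8 of the 9 ratios to Cd3e overlapped between genotypes. There the mean log2 ratio of Gzmb to Cd3e was 1.89 in homozygous and 1.92 in heterozygous libraries, that of Itgae to Cd3e was 1.09 in both groups, and that of Cd8a to Cd3e was 1.48 and 1.50. The exception was Ccl5. Its log2 ratio to Cd3e was 1.21 to 1.57 in homozygous and 1.76 to 2.35 in heterozygous Rosa26-CreER villi. In Vil1-CreER villi it was -0.24 to 0.64 against 0.68 to 1.39. Neither pair of villus groups overlapped. The low Ccl5 ratio was not limited to villi. In Rosa26-CreER crypts it was 1.21 to 1.77 in homozygous and 1.79 to 2.09 in heterozygous libraries, also without overlap. In Vil1-CreER crypts the groups overlapped, with mean log2 values of -0.21 in homozygous and 0.34 in heterozygous libraries. In Rosa26-CreER villi the ratios of Cd8a and Nkg7 to Cd3e did not overlap either, with mean log2 values of 1.23 against 1.40 and -0.46 against -0.09. How often ratios of other genes to Cd3e lacked overlap was not computed, so these cases are descriptions only.

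The effect of genotype in villi was set against that in crypts of the same mice with an interaction term. With Vil1-CreER all 10 genes had a more negative genotype effect in villi than in crypts. The difference passed the test for 7 of the 10, where 4.79% of 17507 tested genes were called lower. The differences of the log2 fold changes were -2.79 ± 0.54 for Ccl5 (adjusted p = 0.0191), -2.68 ± 0.48 for Nkg7 (0.0118), -2.60 ± 0.45 for Cd3g (0.0129), -2.42 ± 0.40 for Cd3e (0.00954), -2.27 ± 0.32 for Klrd1 (0.00565), -2.03 ± 0.38 for Itgae (0.0146) and -2.03 ± 0.39 for Cd8a (0.0169). Ptprc, Gzma and Gzmb had differences of -3.22 ± 0.99, -1.61 ± 0.52 and -1.77 ± 0.60 and did not pass (adjusted p = 0.0783, 0.0790 and 0.0968). With Rosa26-CreER all 10 differences were negative, with a median of -1.57, and 0 passed, where 1.61% of 16514 genes were called lower. At an unadjusted p under 0.05 there were 6, and DESeq2 called 3. The Vil1-CreER count fell to 3 without homozygous animal 2 and to 3 without the animal as a block.

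In heterozygous mice most of the genes were higher in villi than in crypts. With Vil1-CreER the villi held 5.86-fold more Gzma, 5.41-fold more Klrd1, 4.73-fold more Gzmb, 4.55-fold more Cd8a and 2.73-fold more Cd3e, and each of these was higher in villi in 4 of 4 animals. In all, 9 of the 10 genes passed, where 32.0% of 15757 tested genes were called higher, with adjusted p from 1.83e-05 for Klrd1 to 0.00318 for Gzmb. Ptprc did not pass, with a log2 fold change of 0.20 ± 0.63 (adjusted p = 0.792). With Rosa26-CreER 7 of the 10 passed, where 35.7% of 14793 genes were called higher. The log2 fold changes of those 7 ran from 1.28 ± 0.47 for Itgae (adjusted p = 0.0407) to 1.62 ± 0.53 for Gzma (adjusted p = 0.0258), and Cd3e, Ccl5 and Ptprc had 1.09 ± 0.49, 1.14 ± 0.59 and 0.29 ± 0.49 (adjusted p = 0.0782, 0.118 and 0.610). Each of the genes other than Ptprc was higher in villi in 4 of 5 animals, the exception being animal 4.

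TMM factors were 1.14 to 1.52 in Rosa26-CreER crypts and 0.678 to 0.835 in the villi, so the scale itself differed between the compartments. With library totals in place of TMM the median of all genes moved from -0.10 to -1.07 in heterozygous Rosa26-CreER mice and that of the 10 genes from 1.35 to 0.40, with 0 called. In heterozygous Vil1-CreER mice the medians moved from -0.07 to -0.68 over all genes and from 2.14 to 1.54 over the 10, with 9 called. The Rosa26-CreER count also fell to 1 without any 1 of animals 1, 2, 3 and 5, and was 9 without animal 4.

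In homozygous mice 1 of the 10 genes was higher in villi with Vil1-CreER and 0 with Rosa26-CreER. With Rosa26-CreER the 10 log2 fold changes of villi over crypts had a median of -0.31, and 1 passed, Ptprc at -2.26 ± 0.64 (adjusted p = 0.0218), where 34.6% of 14949 genes were called lower and 30.9% higher. Ptprc was no longer called without animal 1, 3 or 4, and without animal 5 there were 6 genes called lower. With Vil1-CreER the median was -0.38, where 32.6% of 15585 genes were called lower and 30.3% higher. Ptprc was lower in villi at -3.00 ± 0.45 (adjusted p = 0.00267), Cd3e lower at -0.96 ± 0.28 (adjusted p = 0.0258) and Gzma higher at 0.96 ± 0.31 (adjusted p = 0.0389). Leaving out 1 of the 3 animals gave 1 to 4 calls. Ptprc was not called without animal 3 (adjusted p = 0.169), Cd3e not without animal 2 or 3 (0.110 and 0.0834) and Gzma not without animal 1 or 2 (0.157 and 0.107). Library totals gave 4 lower and 0 higher. The difference between genotypes in this villus-to-crypt step is the interaction tested above.

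**Figure D4:**
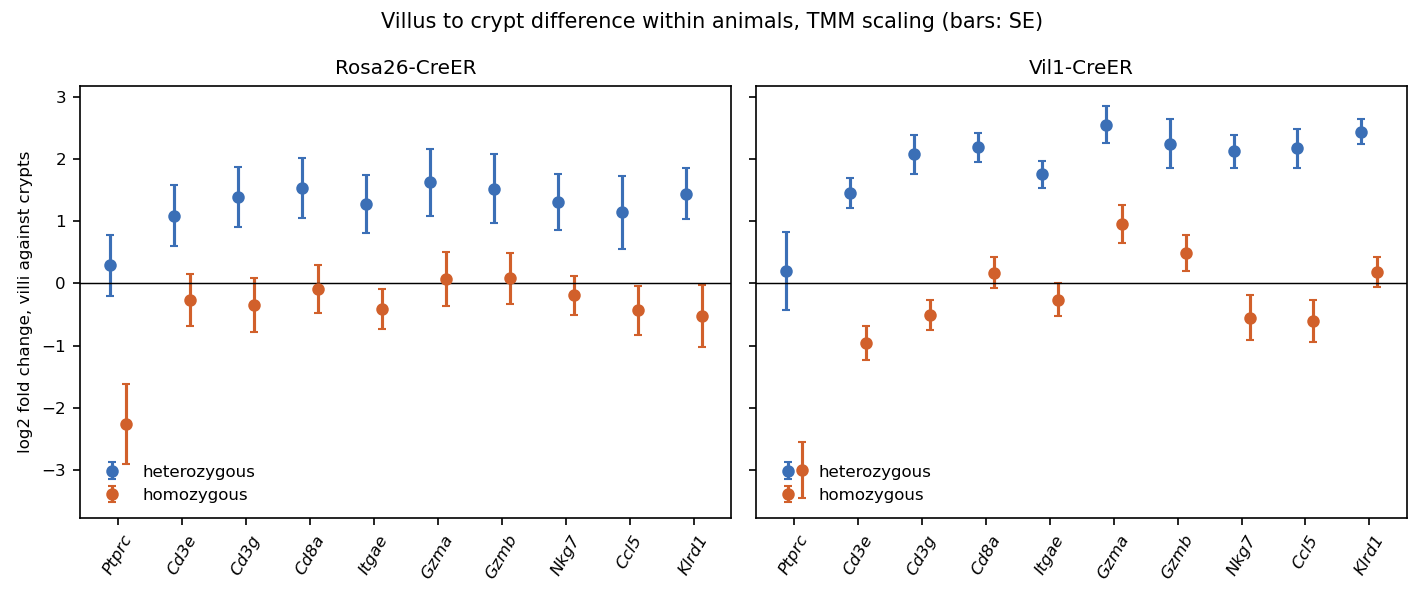
Log2 fold change of villi over crypts of the same animals for each of the 10 genes, with bars of 1 SE, in heterozygous and homozygous mice of both drivers. Heterozygous values lie above 0, from 0.20 to 2.55 with Vil1-CreER, and homozygous values lie on both sides of 0, with Gzma at 0.96 with Vil1-CreER and Ptprc lowest at -2.26 and -3.00.

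Ordered by the sum of the 10 genes, the tissue groups ran from heterozygous Vil1-CreER villi at 1069 ± 323 CPM (SD, n = 4) through heterozygous Rosa26-CreER villi at 725 ± 361 CPM (n = 5), homozygous Rosa26-CreER crypts at 414 ± 210 CPM (n = 4), homozygous Vil1-CreER crypts at 372 ± 47.4 CPM (n = 3), heterozygous Vil1-CreER crypts at 356 ± 203 CPM (n = 4) and heterozygous Rosa26-CreER crypts at 338 ± 295 CPM (n = 5) to homozygous Rosa26-CreER villi at 279 ± 60.1 CPM (n = 5) and homozygous Vil1-CreER villi at 226 ± 124 CPM (n = 6). Each neighbour in this order differed from the next by less than the larger of their SDs, and the 2 drivers were scaled separately. Levels of different genes are compared per kilobase of the gene length given in the deposited table. In heterozygous Rosa26-CreER villi Gzma led with 299.9 CPM per kilobase, followed by Ccl5 with 104 and Gzmb with 60.2, and in heterozygous Vil1-CreER villi by Gzma with 419, Gzmb with 96.3 and Ccl5 with 79.1. The CD3 chains were far lower on that scale, Cd3e at 5.82 and 9.15 and Cd3g at 6.91 and 16.8 CPM per kilobase. Ptprc was lowest at 2.24 and 5.88 CPM per kilobase, with a listed length of 18313 bases against 4080 for Cd3e.

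Within groups the 10 genes varied together across libraries, Ptprc least in the Vil1-CreER tissue. After subtraction of each group mean, the correlation of a gene's log2(CPM + 0.5) with the mean of the other 9 was 0.901 to 0.992 over the 19 Rosa26-CreER libraries. Over the 17 Vil1-CreER libraries it was 0.893 to 0.988 for the genes other than Ptprc and 0.359 for Ptprc. The genes outside the 10 whose pattern was most like their mean, by the average of the correlations in both drivers and among 11593 ranked genes, were Cd96 (0.976), Tcrg-C1 (0.973), Cd7 (0.972), Tcrg-C2 (0.960) and Il2rb (0.957). Cd96 and Cd7 are surface proteins of T and natural killer cells, Tcrg-C1 and Tcrg-C2 are constant segments of the T cell receptor gamma chain, and Il2rb is the receptor chain shared by interleukin-2 and interleukin-15. These correlations share libraries and depth and are descriptions.

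Other genes of the lymphocyte programme fell in villi as well. Over all tested genes, 18.2% were called lower and 15.0% higher in Rosa26-CreER villi, and 21.6% and 20.9% in Vil1-CreER villi. A gene high in only 1 genotype can pass the count filter, so the number tested depends on the levels. Of the T cell receptor complex and signalling genes, 24 of 24 tested fell in Rosa26-CreER villi and 24 of 26 in Vil1-CreER villi, with median log2 fold changes of -1.58 and -2.24. In Vil1-CreER villi the lowest p of this list belonged to the adaptor gene Fyb (-2.79 ± 0.28). Of the other cytotoxic effectors and natural killer receptors, 10 of 14 fell in Rosa26-CreER and 17 of 19 in Vil1-CreER villi, with Ctsw, a protease of cytotoxic cells, at -1.63 ± 0.28 and -1.90. Of the homing and residence genes, 7 of 18 and 13 of 18 fell, led by Jaml at -1.77 ± 0.23 and by Cd96 at -2.41. Jaml also fell in Vil1-CreER villi, at -1.50 ± 0.25, and in crypts, where it was -1.37 ± 0.14 with Rosa26-CreER (adjusted p = 0.000539) and -1.11 ± 0.22 with Vil1-CreER (adjusted p = 0.00756). Of 15 pan-leukocyte genes 12 and 15 fell, led in both by Cytip at -2.59 ± 0.31 and -2.31. No gene of these 4 lists rose in either villus comparison. In Rosa26-CreER crypts 0 of 27 T cell receptor genes passed, as in Vil1-CreER crypts, while the granzyme gene Gzmm, which is no member of the 10, rose by 1.59 ± 0.31 (adjusted p = 0.00818) and 1.24 (adjusted p = 0.0256). The Gzmm calls were lost with Ddx3y as a covariate in Rosa26-CreER crypts (adjusted p = 0.104) and without any 1 of 4 of the 7 libraries in Vil1-CreER crypts.

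**Figure D5:**
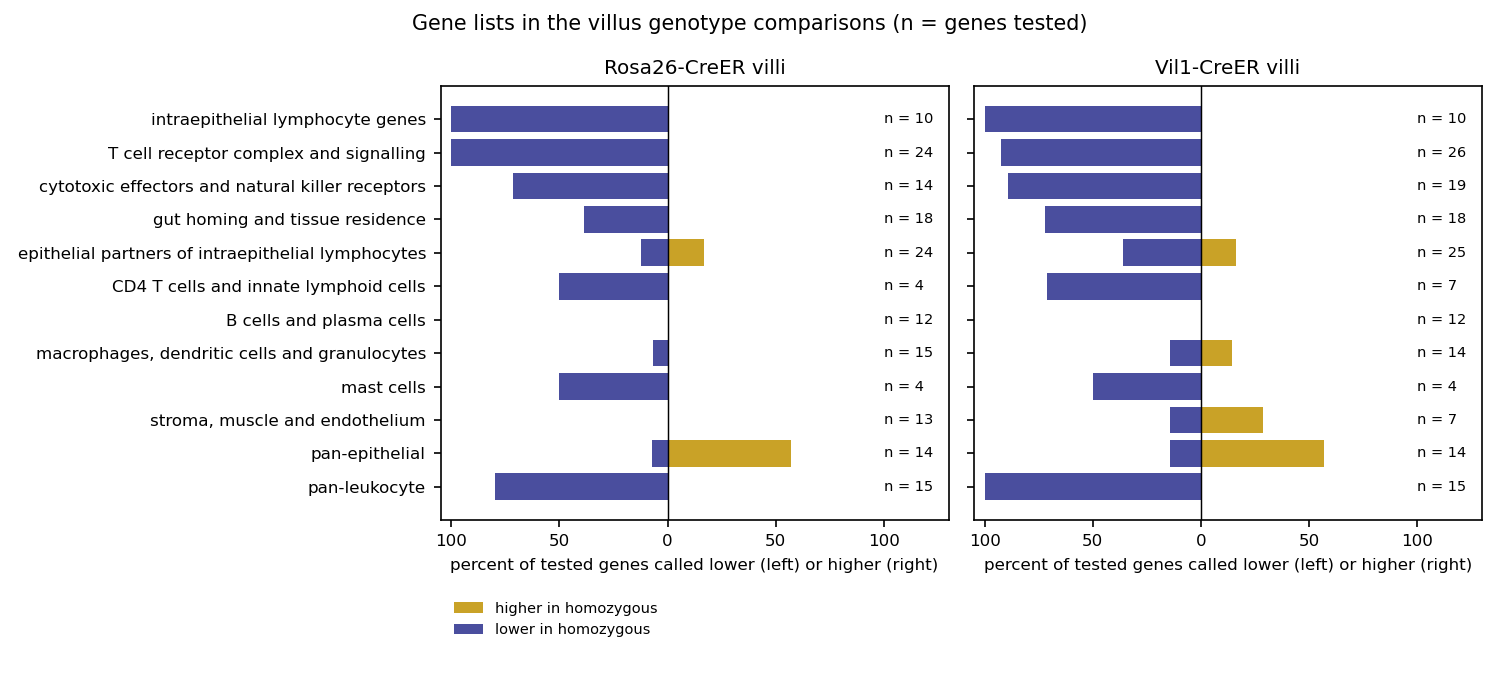
Percent of tested genes called lower and higher in homozygous against heterozygous villi, for each gene list and both drivers. The T cell, cytotoxic and pan-leukocyte lists are mostly called lower, 24 of 24 and 24 of 26 for the T cell list. The B cell and plasma cell list has 0 of 12 called in both. Over all tested genes 18.2% and 21.6% were called lower, and 15.0% and 20.9% higher, with Rosa26-CreER and Vil1-CreER.

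Epithelial genes known to attract, feed or hold these lymphocytes were called in both directions. In Rosa26-CreER villi 4 of 24 rose and 3 fell, with a median of 0.03, shares near or under those of all tested genes, 15.0% called higher and 18.2% lower. Il18, a cytokine made by epithelial cells, rose by 1.03 ± 0.13 (adjusted p = 0.000207), and Ccl25, the chemokine that draws gut-homing T cells, changed by -0.75 ± 0.12 (adjusted p = 0.000814). In Vil1-CreER villi 4 of 25 rose and 9 fell, with a median of -0.46, where 20.9% of all tested genes were called higher and 21.6% lower. The chemokine gene Cxcl16 rose by 1.12 ± 0.17 (adjusted p = 0.000200), and H2-T22, a non-classical class I gene, changed by -0.82 ± 0.14 (adjusted p = 0.000451). Il15, Btnl1, Btnl6 and Cdh1 are given for their known roles and were chosen after their values were seen. Il15, the cytokine on which these lymphocytes depend, was -0.61 ± 0.34 in Rosa26-CreER villi (adjusted p = 0.196) and -0.78 ± 0.22 in Vil1-CreER villi (adjusted p = 0.0120). The butyrophilin-like genes Btnl1 and Btnl6 were -0.26 ± 0.17 and -0.02 ± 0.14 in Rosa26-CreER villi and -0.21 ± 0.15 and -0.18 ± 0.15 in Vil1-CreER villi, none of them called. Cdh1, which encodes E-cadherin, the ligand of the Itgae integrin, rose in both, by 0.42 ± 0.14 (adjusted p = 0.0422) and 0.69 ± 0.14 (adjusted p = 0.00138). In Vil1-CreER crypts 14 of 26 of these genes fell and 2 rose, where 17.7% of all tested genes were called lower and 11.6% higher. In Rosa26-CreER crypts 1 of 26 fell and 2 rose, where 11.6% were called lower and 8.63% higher. A link between these epithelial genes and the lymphocyte genes was not tested.

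Markers of other cells are set beside the shares of all tested genes called in the villi. With Rosa26-CreER 15.0% were called higher and 18.2% lower, and with Vil1-CreER 20.9% higher and 21.6% lower. Of the B cell and plasma cell genes 0 of 12 were called in either villus comparison. Their summed level was 768 to 1226 CPM in homozygous and 311 to 1252 CPM in heterozygous Rosa26-CreER villi, and 254 to 505 against 244 to 370 CPM in Vil1-CreER villi. Such a sum follows the most abundant genes of a list, and their shares were not examined. Of the macrophage, dendritic cell and granulocyte genes, 1 of 15 fell with Rosa26-CreER, and with Vil1-CreER 2 of 14 rose and 2 fell. Siglecf fell in both, at -3.45 ± 0.84 and -5.21. Siglecf is listed as an eosinophil marker and is also made by tuft cells of the gut epithelium. The CD4 T cell and innate lymphoid genes fell in 2 of 4 and 5 of 7 tested. Their summed level was 23.3 to 37.6 CPM in homozygous and 52.8 to 61.2 CPM in heterozygous Rosa26-CreER villi. In Vil1-CreER villi it was 26.7 to 56.8 against 91.0 to 108 CPM. Cd4 itself lay at 0.268 to 13.0 CPM in the Vil1-CreER villus libraries of both genotypes together. Of the mast cell genes 2 of 4 fell in both villus comparisons, one of them Kit, which epithelial secretory cells also carry. Of the stromal genes 0 of 13 passed with Rosa26-CreER, and with Vil1-CreER 2 of 7 rose and 1 fell. Of 14 pan-epithelial genes 8 rose in each villus comparison, against 15.0 and 20.9% of all tested genes, and 1 fell with Rosa26-CreER and 2 with Vil1-CreER. Among those that rose, Epcam lay at 3939 to 4797 CPM in homozygous against 2403 to 3192 CPM in heterozygous Rosa26-CreER villi, and at 3247 to 4566 against 2223 to 2390 CPM in Vil1-CreER villi. The part of these higher epithelial levels in the fall of the lymphocyte genes was not tested.

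In crypts, markers of other blood cells were called in both directions. In Vil1-CreER crypts 11.6% of all tested genes were called higher and 17.7% lower. There 8 of 15 macrophage, dendritic cell and granulocyte genes rose, among them the macrophage receptor gene Csf1r at 1.89, and 2 fell, one of them Siglecf at -3.15 ± 0.32. Of the mast cell genes 4 of 8 rose, among them the mast cell protease gene Mcpt4 at 4.23, and 2 fell, one of them Kit at -1.71 ± 0.16. The summed B cell and plasma cell level was 1104 to 1422 CPM in homozygous and 175 to 1400 CPM in heterozygous Vil1-CreER crypts. In Rosa26-CreER crypts, where 8.63% of all tested genes were called higher and 11.6% lower, 3 of 17 macrophage, dendritic cell and granulocyte genes rose, among them S100a8 at 4.82 ± 0.96 (not called with the Ddx3y covariate), and 1 fell, Siglecf at -1.31 ± 0.23. None of the 8 mast cell genes rose there and 1 fell, Kit at -1.43 ± 0.12, and 0 of 12 B cell and plasma cell genes and 0 of 15 pan-leukocyte genes passed.

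The cultures gave the level of these genes in epithelium without lymphocytes. Over 56 organoid and spheroid libraries with 8652040 to 32352542 counts each, Gzma, Gzmb, Nkg7 and Klrd1 had 0 counts in every library. A count of 0 allows up to 3 counts, or 0.00284 CPM over all culture libraries together, and this limit covers counting error only. Cd3g had 2 counts in 1 library and Cd8a at most 1 in any library. Cd3e reached 4, Ccl5 6 and Ptprc 14 counts in a library. Itgae reached 25 counts, and it was the 1 gene of the 10 that entered a culture test, with a log2 fold change of 0.10 (adjusted p = 0.882, where 35.4% of 15297 genes were called) for 4-hydroxytamoxifen against DMSO in the first organoid set. Itgae overlaps Haspin on the opposite strand, which had 11352 counts in the cultures against 290 for Itgae, and whether the counting used strand was not given in the sources used here. Summed over the 10 genes a culture library had 0 to 31 counts and a tissue library 2502 to 32088. Without the filter on low counts 4 to 5 of the genes could be tested per culture comparison. Of these 0 were called by edgeR, with 0 or 1 per comparison at an unadjusted p under 0.05.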

How the data were processed

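RNA-seq counts per gene, as deposited by the authors, were analysed for 36 crypt and villus libraries and 56 culture libraries. Reads were aligned with HISAT2 2.0.5 to GRCm38 (mm10), per the submitters' processing notes. The counting program, its annotation and its use of strand were not given in the sources used here. All count columns were matched to samples by name, and 0 were unused. The 10 genes and the 11 gene lists (195 genes, 3 of them not matched) were chosen with earlier results of these data known.

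Genes were filtered by edgeR's filterByExpr (minimum count 10), scaled by TMM and tested by edgeR 4.0.16's quasi-likelihood test in R 4.3.3 (limma 3.58.1, pandas 2.3.3), with Benjamini-Hochberg adjustment over all tested genes and calls at an adjusted p under 0.05. Each genotype comparison used its 2 groups. Villi against crypts, and the interaction, used the animal as a block, because the library names in the labels give crypts and villi of an animal the same number. Homozygous Vil1-CreER animals 1, 2 and 3 are named by their crypt libraries, and animal 3 gave villus library 4. Standard errors are the fold change divided by the square root of F. Named genes were the 10, Eif4g2, in each list the called gene with the smallest p in each direction, defining markers of other cells, and the 5 genes most like the mean of the 10. Some genes that this rule names are not reported here. Alternatives were DESeq2 1.42.0, no filter, all groups in the fit, covariates for Ddx3y counts above 50 and for the series of animal numbers, blocks, each library left out and, chosen after seeing the data, library totals without TMM. Tissue replicates of a group have different animal numbers in their library names. For the cultures, library names carry line names or letters, and the labels do not say that all replicates were separate cultures, so their p-values measure the spread between these libraries, which may be technical. Replicate numbers did not pair the genotypes. No library repeated another of its group: counts of every such pair differed by at least 28.4 in chi-square for each degree of freedom. The test was tested on simulated data.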

Additional observations from a re-analysis of the deposited data

Results flagged for a closer look

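Single libraries far from the rest of their group were seen in 17 of 70 combinations of gene and group. The genes varied together within groups and the same few libraries recur, so this count cannot be set against chance. Heterozygous Rosa26-CreER crypt library 4 was far above the other 4 for Cd3g (23.9 CPM), Nkg7 (25.9), Itgae (68.5), Gzma (314), Klrd1 (7.47), Cd3e (31.0), Ccl5 (132) and Cd8a (68.9). Homozygous Rosa26-CreER crypt library 5 was far below the other 3 for Gzmb (10.5 CPM). Heterozygous Rosa26-CreER villus library 3 was far above the other 4 for Gzmb (150.1 CPM), Gzma (548) and Ccl5 (228). Heterozygous Vil1-CreER crypt library 3 was far above the other 3 for Nkg7 (14.1 CPM), Itgae (51.5), Gzmb (66.2), Ccl5 (44.5) and Cd8a (55.6).

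The genotype difference was called more negative in Vil1-CreER villi than in crypts for 7 genes by edgeR's interaction test. In that test 4.79% of 17507 tested genes were called lower. The differences of log2 fold changes were -2.60 for Cd3g, -2.68 for Nkg7, -2.03 for Itgae, -2.27 for Klrd1, -2.42 for Cd3e, -2.79 for Ccl5 and -2.03 for Cd8a. All 10 differences were negative, and with 1 animal left out the count ran from 3 to 9.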

How the results depend on the processing

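The count of called genes among the 10 stayed within 1.5 times its value in 64 of 76 alternatives that keep all libraries. These include the culture comparisons. There 0 or 1 of the 10 genes entered the main fit, so a steady count of 0 says little about stability. In Rosa26-CreER crypts it was 1 with all 4 groups fitted together. In Rosa26-CreER villi it was 3 with the Ddx3y covariate. For the Rosa26-CreER interaction it was 3 by DESeq2 and 2 without the replicate block, and for the Vil1-CreER interaction 3 without the block. For heterozygous Rosa26-CreER villi against crypts it was 0 by library totals, 1 without the filter and 4 without the block. For homozygous Rosa26-CreER villi against crypts it was 6 by library totals and 0 without the filter. For homozygous Vil1-CreER villi against crypts it was 1 without the filter and 1 without the block. The mean level of the 10 in homozygous Rosa26-CreER villi was 15.4 CPM by library totals against 20.6 with TMM. The cause of these shifts was not tested.

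With 1 library or animal left out, the counts were 0 to 1 in Rosa26-CreER crypts, 0 to 2 for the Rosa26-CreER and 3 to 9 for the Vil1-CreER interaction, 1 to 9 for heterozygous and 0 to 6 for homozygous Rosa26-CreER villi against crypts, and 1 to 4 for homozygous Vil1-CreER villi against crypts. Both villus genotype comparisons kept 10.

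Genotype fold changes (log2) changed sign only in crypts among the comparisons of genotype. With Rosa26-CreER the Ddx3y covariate gave 0.17 for Nkg7, 0.23 for Gzma and 0.14 for Ccl5, and Gzma was 0.00071 without the filter and 0.035 with the animal series. With Vil1-CreER the Ddx3y covariate gave 0.095 for Cd3g and 0.056 for Nkg7, the replicate block gave 0.11 for Nkg7 and library totals gave -0.034 for Cd3e. Villi against crypts by library totals gave -0.66 and -0.40 for Ptprc in heterozygous Rosa26-CreER and Vil1-CreER mice, -0.77 for Gzmb and -0.78 for Gzma in homozygous Rosa26-CreER mice, and -0.12 for Klrd1 and -0.13 for Cd8a in homozygous Vil1-CreER mice. Without the block these were -0.30 for Ptprc in heterozygous Vil1-CreER mice, and -0.10 for Gzmb and -0.061 for Gzma in homozygous Rosa26-CreER mice.

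With 1 library or animal left out, some log2 fold changes near 0 took both signs. The ranges were -0.052 to 0.87 for Cd3g, -0.38 to 0.62 for Nkg7, -0.30 to 0.71 for Gzma, -0.065 to 0.85 for Cd3e, -0.54 to 0.58 for Ccl5 and -0.16 to 1.00 for Cd8a for Rosa26-CreER crypts, homozygous against heterozygous. For Rosa26-CreER heterozygous villi against crypts they were -0.19 to 0.71 for Ptprc. For Rosa26-CreER homozygous villi against crypts they were -0.52 to 0.0026 for Nkg7, -0.38 to 0.37 for Gzmb, -0.42 to 0.37 for Gzma, -0.71 to 0.054 for Cd3e and -0.52 to 0.20 for Cd8a. For Vil1-CreER crypts, homozygous against heterozygous, they were -0.26 to 0.55 for Cd3g, -0.25 to 0.81 for Nkg7, -0.50 to 0.35 for Itgae, -0.64 to 0.25 for Gzmb, -0.50 to 0.49 for Klrd1, -0.16 to 0.57 for Cd3e, -0.77 to 0.26 for Ccl5 and -0.58 to 0.38 for Cd8a. For Vil1-CreER heterozygous villi against crypts they were -0.42 to 0.83 for Ptprc. For Vil1-CreER homozygous villi against crypts they were -0.58 to 0.087 for Itgae, -0.057 to 0.34 for Klrd1 and -0.15 to 0.50 for Cd8a. For organoid set 1, 4-OHT against DMSO they were -0.24 to 0.37 for Itgae.

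Replicate numbers are shared between genotypes, but their deviations from the group means correlated at 0.037 to 0.599 in Rosa26-CreER crypts, -0.164 to 0.254 in Rosa26-CreER villi, -0.034 to 0.191 in Vil1-CreER crypts and -0.103 to 0.115 in Vil1-CreER villi, and not every library correlated best with its own number. With the replicate block 8 of the 10 genes were called with Rosa26-CreER and 10 with Vil1-CreER in villi. Fewer than 10 libraries a group limit the precision of every comparison, most of all in crypts.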
